A study of Mus musculus with 13 samples.

Results

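Ptgds, which encodes the lipocalin-type prostaglandin D2 synthase, and 8 further genes of prostaglandin production, signalling and breakdown were followed across mouse hearts. The 8 others were Hpgds, Ptgs1, Ptgs2, Ptges, Ptgis, Ptger3, Ptger4 and Hpgd. The 9 genes were found by symbol among the 55471 genes of the count table, and all 9 were among the 15000 genes with enough counts to be tested. They were chosen by values of the mavacamten comparison in these same libraries, with Ptgds at their head, so their differences in that comparison are given as a description without a test. Their differences between genotypes draw on the same R502W control libraries and are also given without a test.

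The hearts came from 3 groups of mice. The R502W mavacamten group (n = 4) carried the R502W change in cardiac myosin-binding protein C, a regulator of the thick filament, and drank 2.5 mg/kg/day of mavacamten for 21 weeks. Mavacamten is an inhibitor of cardiac myosin. The R502W control group (n = 4) carried the same change without the drug, and the WT control group (n = 5) had neither. Mice were 24 weeks old by the design text, whereas the extraction protocol spoke of hearts aged 3 and 18 weeks, and the difference could not be settled. The labels name no strain, sex or zygosity, and no vehicle for the control groups. RNA came from whole heart tissue, so a lower level may come from fewer cells of a type or from less RNA per cell, and these cannot be told apart. Samples are numbered within groups, but nothing says that each is another animal, and the p-values below therefore speak only of the spread among these libraries, which may be technical.

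Prostaglandins are short-lived lipid signals made from arachidonic acid. The cyclooxygenases Ptgs1 and Ptgs2 turn it into prostaglandin H2, and a terminal synthase then sets which prostanoid is formed: D2 by Ptgds or Hpgds, E2 by Ptges, and prostacyclin by Ptgis. The products act on receptors at the cell surface, among them the E2 receptors Ptger3 and Ptger4, and are inactivated by the dehydrogenase Hpgd. In the heart and its vessels prostacyclin is known as a vasodilator that restrains platelets, and Ptgds protein is also secreted and carries small lipophilic molecules.

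Libraries held between 15350622 and 19361103 expected counts. Cardiomyocyte markers were high in every library, with a summed level of 8 ventricular markers of 54400 to 76200 CPM (counts scaled to a common library size) in R502W mavacamten hearts, 57700 to 67000 CPM in R502W control hearts and 43600 to 61900 CPM in WT control hearts. Much of these sums was Myh6, at 18100 to 40200 CPM. Some libraries stood apart by single genes or marker lists. In 3 libraries, R502W mavacamten replicate 3, R502W control replicate 1 and WT control replicate 3, the atrial gene Bmp10 was at 6.23, 1.57 and 8.33 CPM, against 307 to 672 CPM in the others. The summed level of 8 atrial markers did not follow it: it was 3190, 5460 and 6620 CPM in these 3 libraries, within 3190 to 8550 CPM over all 13. Much of that sum was 1 marker, Nppa, at 1830 to 4950 CPM, so the sum says little about the other atrial markers. In 4 libraries, R502W mavacamten replicate 4, R502W control replicate 1 and WT control replicates 2 and 3, the fat gene Adipoq was at 70.7 to 99.5 CPM, against 0.675 to 29.1 CPM in the other 9. Lung and airway markers summed to 2.64 to 151 CPM in R502W mavacamten hearts, 0.281 to 1.61 CPM in R502W control hearts and 1.39 to 605 CPM in WT control hearts. They were highest in WT control replicates 3 and 2, at 605 and 381 CPM, and in R502W mavacamten replicate 1, at 151 CPM. WT control replicate 2 also had 353 CPM of T cell and thymus markers.

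Promoter sequence is shown for Ptgds, Hpgds and Ptger4, the 3 members whose level in R502W control hearts exceeded that in both other groups by more than the SE of the difference. The sequences are RefSeq's for GRCm38.p6, on the minus strand for all 3 genes, written 5′ to 3′. Of the 250 bases before each RefSeq start, only the stretch outside annotated exons is printed, with matched motifs in capitals.
Ptgds, chr2:25469843-25469999: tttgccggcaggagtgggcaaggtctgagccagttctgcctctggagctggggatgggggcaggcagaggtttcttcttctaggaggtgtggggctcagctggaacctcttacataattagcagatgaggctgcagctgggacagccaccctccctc
Ptgds, chr2:25469768-25469794: aggccaagccTGACTCAtaaatagggg
Hpgds, chr6:65144909-65144980: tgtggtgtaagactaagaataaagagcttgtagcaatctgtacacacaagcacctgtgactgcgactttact
Ptger4, chr15:5244188-5244437: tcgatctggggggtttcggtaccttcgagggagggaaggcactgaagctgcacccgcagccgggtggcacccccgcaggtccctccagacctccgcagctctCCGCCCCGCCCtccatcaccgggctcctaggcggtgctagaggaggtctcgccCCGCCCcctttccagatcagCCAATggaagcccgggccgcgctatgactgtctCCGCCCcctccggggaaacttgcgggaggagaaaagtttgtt
The 3 windows shared no motif among the 6 searched on both strands. The AP-1 motif TGANTCA stood once in the Ptgds window, 35 to 29 bases before the start, and 6.73% of 32536 mouse promoter windows of the same length hold it. That match lies inside an annotated Ptgds exon, and is printed with 10 bases on each side. The annotated Ptgds gene extends to base 25470046, so both printed Ptgds stretches lie within it. The GC box GGGCGG, read as CCGCCC on the printed strand, stood 4 times in the Ptger4 window, the first 2 sharing a base, and the CCAAT box stood once; 33.0% and 33.8% of windows hold these motifs. None of the 6 motifs was in the Hpgds window, and the E-box CACGTG (6.04% of windows), the TATA box TATAAA (12.3%) and the CRE half-site TGACG (17.9%) were in none of the 3. The windows held 58.4% G and C bases for Ptgds, 45.2% for Hpgds and 66.8% for Ptger4.

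Ptgds (ENSMUSG00000015090, chr2:25466709-25470046 on GRCm38, minus strand) was the most abundant member. Per kilobase of exon it averaged 77.1 CPM over the 13 libraries. The order below it was Ptgis at 11.0, Hpgd at 5.70, Ptgs1 at 4.07, Ptges at 0.943, Ptger4 at 0.805, Ptger3 at 0.693, Hpgds at 0.547 and Ptgs2 at 0.474 CPM per kilobase. Across libraries Ptgds ranged from 45.6 to 126 CPM per kilobase, apart from Ptgis at 7.34 to 15.3. Hpgd ranged from 3.63 to 9.55 and Ptgs1 from 3.10 to 5.12 CPM per kilobase, so Ptgis overlapped Hpgd and Hpgd overlapped Ptgs1. The lowest 5, none above 2.64 CPM per kilobase in any library, overlapped one another. Both D2 synthases were present, the lipocalin-type one at 91.1 to 150 times the per-kilobase level of the haematopoietic one, Hpgds, in R502W mavacamten hearts, 146 to 207 times in R502W control hearts and 92.5 to 242 times in WT control hearts.

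The level of Ptgds was 127, 75.2, 83.3 and 90.3 CPM in R502W mavacamten hearts, against 195, 208, 147 and 184 CPM in R502W control hearts. In WT control hearts it was 114, 149, 84.6, 86.9 and 107 CPM. Every treated heart lay below every R502W control heart, and the treated and WT ranges overlapped. These levels rest on 1169 to 3747 counts a library. The means were 94.1 ± 23.1 CPM in R502W mavacamten hearts (SD, n = 4), 184 ± 26.0 CPM in R502W control hearts (SD, n = 4) and 108 ± 25.9 CPM in WT control hearts (SD, n = 5).

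**Figure D1:**
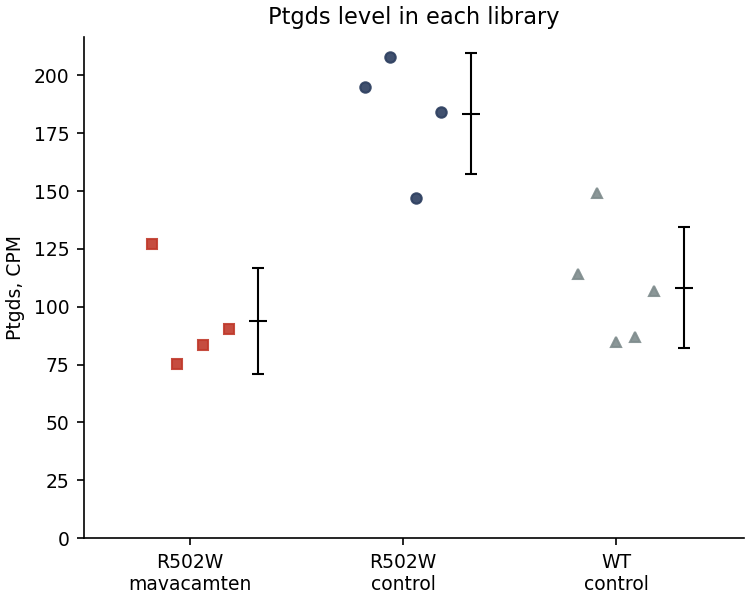
Ptgds level in CPM for each library (points), with the mean and SD of each group (bar to the right of its points). The 4 R502W mavacamten hearts sit between 75.2 and 127 CPM, below the 4 R502W control hearts at 147 to 208 CPM, while the 5 WT control hearts span 84.6 to 149 CPM.

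In the mavacamten comparison, R502W mavacamten over R502W control, the log2 fold change of Ptgds was -0.96 ± 0.19 (SE), a ratio of 0.512. Ranked by p-value it stood at place 3 of 15000, which is how it came to be chosen. No gene of the 15000 passed an adjusted p under 0.05 in edgeR's quasi-likelihood test, a background of 0%, and none of the 9 members did. At an unadjusted p under 0.05 the test marked 525 genes, a background of 3.5%, and 2 of the 9 members, Ptgds and Ptger4. DESeq2 called 6 genes at an adjusted p under 0.05, of which Ptgds was 1 and the only member, and limma voom called 0. Groups that did not overlap were found for 430 genes, a background of 2.87%, and for 2 members, Ptgds and Hpgds, both lower in treated hearts. As the members were chosen on this comparison, nothing is read from these counts.

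In the genotype comparison, R502W control over WT control, the log2 fold change of Ptgds was 0.76 ± 0.18 (SE), a ratio of 1.70. The 4 R502W control values in this ratio are those that entered the choice of Ptgds, and a gene chosen for a low ratio to them tends to have high values there, so no test is read from it. Of the 15000 genes, 1856 passed an adjusted p under 0.05 in edgeR's quasi-likelihood test, a background of 12.4%, with 1294 higher and 562 lower in R502W control hearts. Ptgds was the 1 member of 9 among them, and nothing is read from this count. The group ranges overlapped, since WT control replicate 2, at 149 CPM, was above R502W control replicate 3, at 147 CPM. The estimate was 0.67 to 0.87 with 1 library left out and 0.63 without the 3 libraries low in Bmp10.

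Between R502W mavacamten and WT control hearts, Ptgds differed by a log2 fold change of -0.20 ± 0.18 (SE), with a 95% interval from -0.56 to 0.16. This comparison shares libraries with both others, so the members are given as values only. Of the 15000 genes 1232 passed an adjusted p under 0.05, a background of 8.21%, and none of the 9 members was among them.

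The second D2 synthase, Hpgds (ENSMUSG00000029919, chr6:65117293-65144908), known from mast cells, T helper cells and megakaryocytes, was low, with 25 to 86 counts a library. Levels were 3.32, 3.22, 3.40 and 2.60 CPM in R502W mavacamten hearts, 4.83, 4.78, 3.94 and 3.47 CPM in R502W control hearts and 1.83, 3.36, 3.56, 3.46 and 3.91 CPM in WT control hearts. Treated hearts lay below R502W control hearts by a narrow gap, and WT control replicate 1 was the lowest of all 13. With CPM taken on raw library size the gap was lost: treated replicate 1 was at 3.55 CPM and R502W control replicate 4 at 3.46 CPM. On the log2 scale its fold change was -0.44 ± 0.22 for mavacamten and 0.39 ± 0.21 for genotype. Summed levels of 8 mast cell markers were 14.2 to 25.1 CPM in R502W mavacamten hearts, 14.2 to 17.0 CPM in R502W control hearts and 11.5 to 38.5 CPM in WT control hearts, with none at 0 throughout a group. Those of 7 platelet and megakaryocyte markers were 9.98 to 17.3 CPM in R502W mavacamten hearts, 14.4 to 15.4 CPM in R502W control hearts and 13.7 to 23.0 CPM in WT control hearts. The part of these cells in the Hpgds values was not tested.

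The receptors of prostaglandin D2 were near or under the limit of these libraries. Ptgdr, the DP1 receptor, had 0 counts in all 13, which allows up to 3 counts a library, or 0.155 to 0.220 CPM depending on depth. Ptgdr2, the DP2 receptor known from T helper 2 cells and eosinophils, had 16.4 counts in all, spread over 6 libraries, with a highest level of 0.252 CPM. Such limits cover counting error only.

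Of the cyclooxygenases, the constitutive Ptgs1 (ENSMUSG00000047250, chr2:36230426-36252272) was 4.62 to 33.0 times the inducible Ptgs2 (ENSMUSG00000032487, chr1:150100031-150108227) per kilobase. Ptgs1 was at 15.4, 14.4, 12.0 and 15.2 CPM in R502W mavacamten hearts, 12.7, 19.9, 16.7 and 16.7 CPM in R502W control hearts and 14.2, 17.9, 15.5, 19.9 and 14.9 CPM in WT control hearts. All 3 groups overlapped. Its log2 fold change was -0.21 ± 0.14 for mavacamten and 0.00 ± 0.14 for genotype (95% interval -0.26 to 0.27).

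Ptgs2, an early-response gene, varied more within groups than Ptgs1. It was at 3.15, 0.515, 1.63 and 3.89 CPM in R502W mavacamten hearts, 2.87, 2.61, 1.41 and 2.38 CPM in R502W control hearts and 1.61, 1.02, 3.14, 2.41 and 1.58 CPM in WT control hearts. The lowest and the highest of the 13 libraries were both treated hearts. With 8 to 72 counts a library, the 95% interval of the genotype difference ran from -0.66 to 1.15 on the log2 scale, around 0.24. For mavacamten the log2 fold change was -0.00 ± 0.50 (SE).

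Ptgis (ENSMUSG00000017969, chr2:167191805-167240604), the prostacyclin synthase, was the second most abundant member. It stood at 27.5, 19.8, 18.8 and 25.1 CPM in R502W mavacamten hearts, 27.4, 33.1, 22.2 and 21.3 CPM in R502W control hearts and 21.1, 36.9, 37.1, 38.1 and 39.4 CPM in WT control hearts. WT control hearts were the highest apart from replicate 1, which was as low as the R502W hearts. Ptgis had a log2 fold change of -0.19 ± 0.20 for mavacamten, -0.41 ± 0.19 for genotype and -0.60 ± 0.19 for treated over WT control hearts. Without WT control replicate 1 the genotype difference was -0.57. That library also had the lowest summed level of 8 fibroblast markers among WT control hearts, 2590 CPM against 3050 to 3370 CPM, with none at 0, and the part of this in the Ptgis value was not tested. Much of that sum was 1 marker, Gsn, at 1660 to 2130 CPM in WT control hearts, so it says little about the other fibroblast markers. An unstranded count would also mix in the antisense transcript 1110018N20Rik, at 2.28 CPM against 28.3 CPM for Ptgis; whether strand was used in counting is not stated.

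Ptges (ENSMUSG00000050737, chr2:30889471-30929863), the inducible microsomal E2 synthase, was at 3.10, 2.45, 2.27 and 6.70 CPM in R502W mavacamten hearts. In R502W control hearts it was at 4.12, 1.83, 2.70 and 3.21 CPM, and in WT control hearts at 2.79, 7.50, 6.10, 2.83 and 2.58 CPM. One treated heart and 2 WT control hearts stood well above the rest of their groups. For Ptges the log2 fold change was 0.30 ± 0.43 for mavacamten and -0.56 ± 0.41 for genotype.

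Ptger3 (ENSMUSG00000040016, chr3:157566892-157645888), the EP3 receptor, lowers cyclic AMP and is known to be abundant in fat. It was at 2.93, 0.193, 0.567 and 15 CPM in R502W mavacamten hearts, 9.54, 2.00, 0.0563 and 3.68 CPM in R502W control hearts and 0.220, 4.26, 8.75, 2.78 and 1.26 CPM in WT control hearts. Each group held both a library near 0 and one several times its median. The log2 fold change was 0.32 ± 1.16 for mavacamten and 0.12 ± 1.11 for genotype, and the 95% interval of the genotype difference ran from -2.05 to 2.29. With limma voom the genotype estimate turned to -0.55.

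The 4 libraries with the most Adipoq, a fat cell hormone, were the 4 highest for Ptger3 and also the 4 highest for Ptges. Ptger3 was at 4.26 to 15 CPM in them, against 0.0563 to 3.68 CPM in the other 9, and Ptges at 4.12 to 7.50 CPM, against 1.83 to 3.21 CPM. For no other member were these the 4 highest libraries. Summed over 7 adipocyte markers, the levels were 7.92 to 736 CPM in R502W mavacamten hearts, 4.50 to 500 CPM in R502W control hearts and 18.0 to 744 CPM in WT control hearts, with no marker at 0 throughout a group. This grouping of libraries was made after their values were seen. The part of fat in the levels of Ptger3 and Ptges was not tested.

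**Figure D2:**
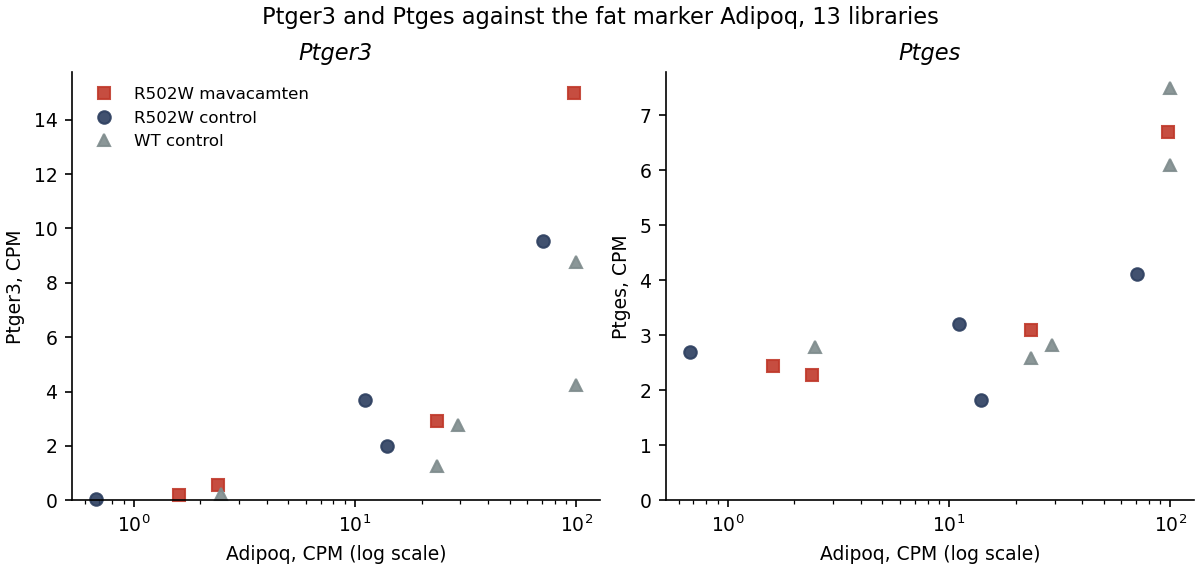
Levels in CPM of Ptger3 (left) and Ptges (right) against Adipoq (CPM, log scale), 1 point per library, with marker shape and colour giving the group. The 4 libraries with 70.7 to 99.5 CPM of Adipoq, from all 3 groups, hold the 4 highest values of both genes.

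Ptger4 (ENSMUSG00000039942, chr15:5206661-5244187), the EP4 receptor, raises cyclic AMP and is found on macrophages and vessel walls. It was at 6.02, 5.21, 3.26 and 4.54 CPM in R502W mavacamten hearts, 6.66, 5.84, 6.47 and 7.15 CPM in R502W control hearts and 4.55, 3.96, 5.13, 5.09 and 5.67 CPM in WT control hearts. Every R502W control heart was above every WT control heart, and 1 treated heart, replicate 1, reached into the R502W control range. For Ptger4 the log2 fold change was -0.45 ± 0.18 for mavacamten and 0.42 ± 0.17 for genotype. Groups that did not overlap in the genotype comparison were found for 2662 of the 15000 genes, a background of 17.7%, and for Ptger4 alone of the 9 members, a share of the members no higher than the background. The opposite strand carries Ttc33, at 19.4 CPM against 5.35 CPM for Ptger4, whose reads would be mixed with it in a count without strand. Summed over 9 macrophage markers, the levels were 237 to 326 CPM in R502W mavacamten hearts, 285 to 375 CPM in R502W control hearts and 275 to 364 CPM in WT control hearts.

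Hpgd (ENSMUSG00000031613, chr8:56294585-56321043), which inactivates prostaglandins by oxidising the 15-hydroxyl group, was at 9.29, 8.11, 6.52 and 6.11 CPM in R502W mavacamten hearts. In R502W control hearts it was at 9.73, 9.67, 6.92 and 10.5 CPM, and in WT control hearts at 9.90, 16.1, 10.6, 12.2 and 9.14 CPM. The mean was 7.50 ± 1.47 CPM in R502W mavacamten hearts, 9.20 ± 1.56 CPM in R502W control hearts (SD, n = 4 each) and 11.6 ± 2.75 CPM in WT control hearts (SD, n = 5), and all 3 ranges overlapped. The log2 fold change was -0.29 ± 0.20 for mavacamten, -0.33 ± 0.18 for genotype and -0.63 ± 0.19 for treated over WT control hearts.

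**Figure D3:**
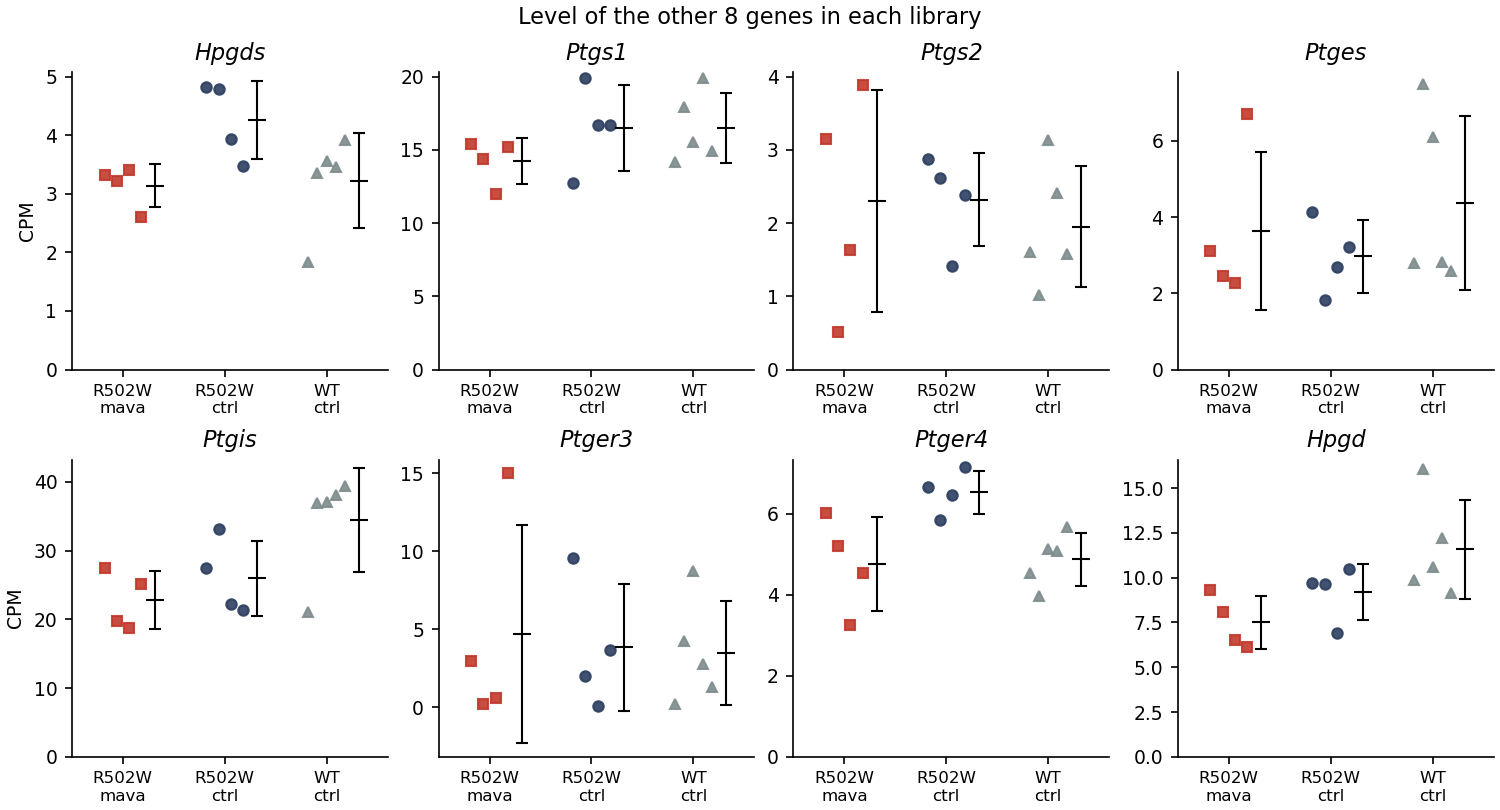
Levels in CPM of the 8 members other than Ptgds, 1 panel per gene with its own axis, points for libraries and bars for the mean and SD of each group. Hpgds and Ptger4 have their highest group mean in R502W control hearts (4.26 and 6.53 CPM), Ptgis and Hpgd in WT control hearts (34.5 and 11.6 CPM), and Ptger3 is spread from 0.0563 to 15 CPM within and across groups.

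Side by side, the 9 members did not move as a block. Over the members the median log2 fold change was -0.21 for mavacamten, against 0.00 over all genes tested, and 0.12 for genotype, against -0.01 over all genes. Ptgds, Hpgds and Ptger4 had a negative estimate for mavacamten, a positive one for genotype and estimates of -0.20, -0.05 and -0.03 for treated over WT control hearts. Ptgis and Hpgd had negative estimates in all 3 comparisons. Since the mavacamten and genotype comparisons share the R502W control libraries, opposite signs in them are not independent of each other.

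**Figure D4:**
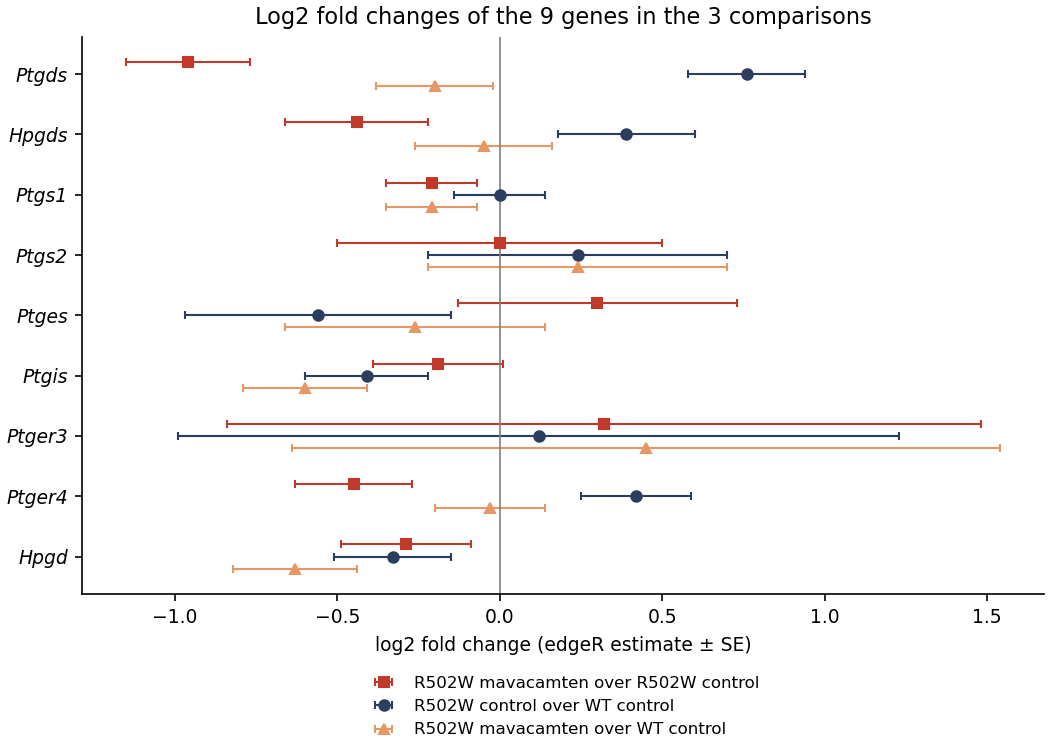
Log2 fold change (points) with SE (bars) of the 9 members in 3 comparisons: R502W mavacamten over R502W control, R502W control over WT control, and R502W mavacamten over WT control. Ptgds is at -0.96, 0.76 and -0.20, the SE of Ptger3 exceeds 1 in each, and Ptgis and Hpgd are left of 0 in all 3.

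Some markers of other cell types also passed an adjusted p under 0.05 for genotype in edgeR's test, as did 12.4% of all genes. Nothing is read from the number of such markers. No marker passed in the ventricular, atrial, macrophage, mast cell or platelet lists, nor in the neutrophil, adipocyte or valve and cartilage lists. All 3 tested airway and lung markers were lower in R502W control hearts. The log2 fold changes were -8.55 for Scgb1a1, -7.16 for Scgb3a2 and -7.07 for Cyp2f2 (adjusted p = 0.0353, 0.0456 and 0.0384, edgeR). Their high WT levels lay in replicates 2 and 3, as given above. Of 4 tested T cell and thymus markers Cd247 passed, at -2.60 (adjusted p = 0.0359, edgeR). Of the 8 endothelial markers, Kdr and Cldn5 were higher in R502W control than in WT control hearts, with log2 fold changes of 0.73 and 0.70 (adjusted p = 0.00929 for each, edgeR). The list had a median genotype log2 fold change of 0.33. The summed endothelial level was 1080 to 1120 CPM in R502W mavacamten hearts, 1080 to 1320 CPM in R502W control hearts and 987 to 1220 CPM in WT control hearts. It includes Fabp4, at 225 to 556 CPM. The highest sum of each group was in a library high in Adipoq: R502W mavacamten replicate 4, R502W control replicate 1 and WT control replicate 3. The part of fat in this sum was not tested. For 8 endocardial markers it was 213 to 250 CPM in R502W mavacamten hearts, 226 to 288 CPM in R502W control hearts and 186 to 239 CPM in WT control hearts. Of the 7 tested, Cgnl1 alone was higher in R502W control than in WT control hearts, by 0.50 on the log2 scale (adjusted p = 0.0306, edgeR). No marker of either list was at 0 throughout a group. In 8 fibroblast markers Col1a1 alone passed, higher in R502W control hearts by 0.77 (adjusted p = 0.00892, edgeR). In 8 mural markers Cspg4 and Notch3 were higher, by 0.66 and 0.56 (adjusted p = 0.00463 and 0.0115, edgeR). Neither list moved as a whole, with median genotype log2 fold changes of 0.05 for fibroblast and 0.01 for mural markers. Estimates ran from -0.25 for Gsn to 0.77 for Col1a1, and from -0.91 for Tagln to 0.66 for Cspg4. Summed fibroblast levels were 2370 to 3130 CPM in R502W mavacamten hearts, 2700 to 3250 CPM in R502W control hearts and 2590 to 3370 CPM in WT control hearts. Much of these sums was Gsn, at 1400 to 2130 CPM. Mural levels were 747 to 1110 CPM in R502W mavacamten hearts, 717 to 991 CPM in R502W control hearts and 598 to 1080 CPM in WT control hearts. Of 6 Schwann cell markers Sox10 was lower in R502W control hearts, with a log2 fold change of -1.21 (adjusted p = 0.0218, edgeR), and the 6 summed to 15.8 to 36.4 CPM in R502W mavacamten hearts, 15.8 to 25.9 CPM in R502W control hearts and 20 to 37.6 CPM in WT control hearts. The 9 mesothelial and epicardial markers had a median genotype log2 fold change of -0.88 with none past the threshold, and summed to 44.6 to 121 CPM in R502W mavacamten hearts, 50.9 to 111 CPM in R502W control hearts and 76.9 to 248 CPM in WT control hearts. No marker of these 4 lists was at 0 throughout a group. Of the leptomeningeal markers, Slc22a6 was at 0 in all 3 groups. The 7 of that list summed to 67.3 to 88.2 CPM in R502W mavacamten hearts, 80.1 to 92.4 CPM in R502W control hearts and 73.5 to 90.0 CPM in WT control hearts. Most of these sums was Slc47a1, at 52.8 to 68.9 CPM.

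Melanocytes are known to express Ptgds. Dct, an enzyme of melanin synthesis, was at 3.68 to 5.46 CPM in R502W mavacamten hearts, 5.01 to 7.56 CPM in R502W control hearts and 2.41 to 3.48 CPM in WT control hearts. Its genotype log2 fold change was 1.17 ± 0.18 (SE), with an adjusted p of 0.00149 in edgeR's test, and it was the 1 of 3 tested melanocyte markers that passed. Mlana, a melanosome protein, was at 2.34 to 6.42 CPM in R502W mavacamten hearts, 3.40 to 7.06 CPM in R502W control hearts and 3.74 to 12.8 CPM in WT control hearts, with a genotype log2 fold change of -0.38 ± 0.35 that did not pass. Of the other melanocyte markers, Tyr was at 0 in all R502W control hearts, and Tyrp1 and Pmel stayed under 1 CPM in every library. The 6 markers summed to 50 to 61.1 CPM in R502W mavacamten hearts, 49.5 to 57.3 CPM in R502W control hearts and 40.4 to 51.3 CPM in WT control hearts, most of it Mitf, which other cells express too. Clock genes also separated the genotypes: of 10, 3 were higher and 7 lower in R502W control hearts, with Dbp at -2.18 and Arntl at 2.43 (adjusted p = 3.33e-05 and 0.000256, edgeR), and none passed for mavacamten. The part of these cell types and of the clock in the Ptgds values, and in the genotype differences of the pathway genes below, was not tested.

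The 6 genes whose log2 CPM was most like that of Ptgds over the 13 libraries were Haus8, Otulin, Trmt61a, Cox19, Cdv3 and AC119982.1. Pearson's r was 0.86, 0.86, 0.84, 0.83, 0.83 and 0.83 for them, and Spearman's rho ran from 0.70 for Cox19 to 0.86 for Trmt61a. Haus8 is a subunit of the augmin complex of the spindle, Otulin a deubiquitinase of linear ubiquitin chains and Cox19 a protein of cytochrome oxidase assembly. Haus8 averaged 13.5 ± 0.935 CPM in R502W mavacamten hearts, 18.0 ± 1.09 CPM in R502W control hearts (SD, n = 4 each) and 12.0 ± 1.67 CPM in WT control hearts (SD, n = 5). Cdv3 averaged 116 ± 12.4 CPM in R502W mavacamten hearts, 152 ± 8.89 CPM in R502W control hearts and 112 ± 8.12 CPM in WT control hearts. These points share the group differences. With group means removed, r for the 6 was 0.84 for Haus8, 0.77 for Cox19, 0.74 for Otulin, 0.59 for AC119982.1, 0.54 for Trmt61a and 0.49 for Cdv3. The highest such r was with Rpl12 (0.92), Myl12a (0.92) and Atg13 (0.89). Among the members, r with Ptgds was 0.57 for Ptger4 and 0.47 for Hpgds over all 13 libraries, but -0.02 and -0.03 with group means removed, where Hpgd had the highest value, 0.59.

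The wider pathway was read from lists of 71 further genes, of which 57 were tested. In the mavacamten comparison none of the 57 passed an adjusted p under 0.05, and none an unadjusted p under 0.05, against 3.5% of all genes. In the genotype comparison 4 passed, all lower in R502W control hearts, against 12.4% of all genes. The 4 were Cbr1, a carbonyl reductase that can convert prostaglandin E2 to F2α, and 3 genes of other eicosanoid branches.

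Of the synthases other than the members, 1 of 7 tested passed for genotype, against 12.4% of all genes. Cbr1 (ENSMUSG00000051483) averaged 18.1 ± 1.51 CPM in R502W mavacamten hearts, 16.8 ± 0.603 CPM in R502W control hearts (SD, n = 4 each) and 22.2 ± 4.04 CPM in WT control hearts (SD, n = 5). Its genotype log2 fold change was -0.41 ± 0.11 (adjusted p = 0.0346, edgeR). All 4 R502W control hearts were below all 5 WT control hearts, and 17.7% of all genes had no overlap between these groups. WT control replicate 2, which also held airway and thymus markers, was the highest, at 29.2 CPM. The most abundant of this list per kilobase, Fam213b, a prostamide and prostaglandin F synthase, was at 53.9 ± 8.14 CPM in R502W mavacamten hearts, 64.7 ± 5.23 CPM in R502W control hearts and 47.7 ± 12.6 CPM in WT control hearts. At 0.44 ± 0.16 its genotype difference missed the threshold (adjusted p = 0.0842, edgeR); with WT control replicate 2 left out it was 0.57 and passed (adjusted p = 0.00679).

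Of 14 genes of the leukotriene and epoxide branches, 3 passed for genotype, all lower in R502W control hearts, with a list median of -0.35. The background was 12.4% of all genes, and over all lists 4 of 57 passed. Alox5, the 5-lipoxygenase that starts leukotriene synthesis, averaged 12.0 ± 1.61 CPM in R502W mavacamten hearts, 13 ± 2.07 CPM in R502W control hearts (SD, n = 4 each) and 18.2 ± 1.77 CPM in WT control hearts (SD, n = 5). Its genotype log2 fold change was -0.48 ± 0.12 (adjusted p = 0.0233, edgeR). Ltc4s, the leukotriene C4 synthase, was at 1.63, 1.48, 0.991 and 1.89 CPM in R502W mavacamten hearts, 2.55, 1.56, 2.08 and 2.18 CPM in R502W control hearts and 2.64, 4.80, 5.55, 3.04 and 3.15 CPM in WT control hearts. All R502W hearts, treated or not, were below all WT control hearts for Alox5 and for Ltc4s. With CPM taken on raw library size this did not hold. Ltc4s was then at 2.54 CPM in R502W control replicate 1, against 2.33 CPM in WT control replicate 1. Alox5 was then at 14.9 CPM in both R502W control replicate 2 and WT control replicate 1. For R502W control against WT control hearts, 17.7% of all genes had no overlap. The Ltc4s genotype difference was -0.88 ± 0.27 on the log2 scale (adjusted p = 0.0478, edgeR), and rests on 14 to 92 counts a library. Mast cells are known to express Ltc4s. The summed mast cell markers given above reached 38.5 CPM in WT control hearts, where replicate 1 had 11.5 CPM, and their part in Ltc4s was not tested.

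The microsomal epoxide hydrolase Ephx1 averaged 41.0 ± 6.70 CPM in R502W mavacamten hearts, 43.4 ± 5.02 CPM in R502W control hearts (SD, n = 4 each) and 62.7 ± 7.98 CPM in WT control hearts (SD, n = 5). The genotype log2 fold change was -0.53 ± 0.12 (adjusted p = 0.0138, edgeR), without overlap between the groups, as for 17.7% of all genes. With CPM taken on raw library size the groups overlapped, with R502W control replicate 2 at 52.9 CPM and WT control replicate 1 at 49.9 CPM. WT control replicate 2 was the highest, at 76.6 CPM. Ephx2, the soluble hydrolase that removes epoxides of arachidonic acid, was the most abundant gene of this list per kilobase. It averaged 184 ± 21.2 CPM in R502W mavacamten hearts, 171 ± 9.62 CPM in R502W control hearts and 214 ± 26.6 CPM in WT control hearts. Its genotype difference of -0.32 ± 0.10 stood at the threshold itself and did not pass, though it did in 4 of 13 fits with 1 library left out.

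These 4 calls were less firm than their direction. With 1 of the 13 libraries left out in turn, Ephx1 was called in 12 fits, Alox5 in 11, Cbr1 in 8 and Ltc4s in 5, with negative estimates throughout. Leaving out the 3 libraries low in Bmp10 ended all 4 calls, at -0.52 for Ephx1, -0.40 for Alox5, -0.46 for Cbr1 and -0.84 for Ltc4s, and so did leaving out the 4 libraries high in Adipoq, at -0.42, -0.42, -0.30 and -0.63 in that order. In the fit without the high-Adipoq libraries 5 other pathway genes passed, 1 of them higher, among them Fam213b (0.58) and Ephx2 (-0.42), so the genes called there were different ones.

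**Figure D5:**
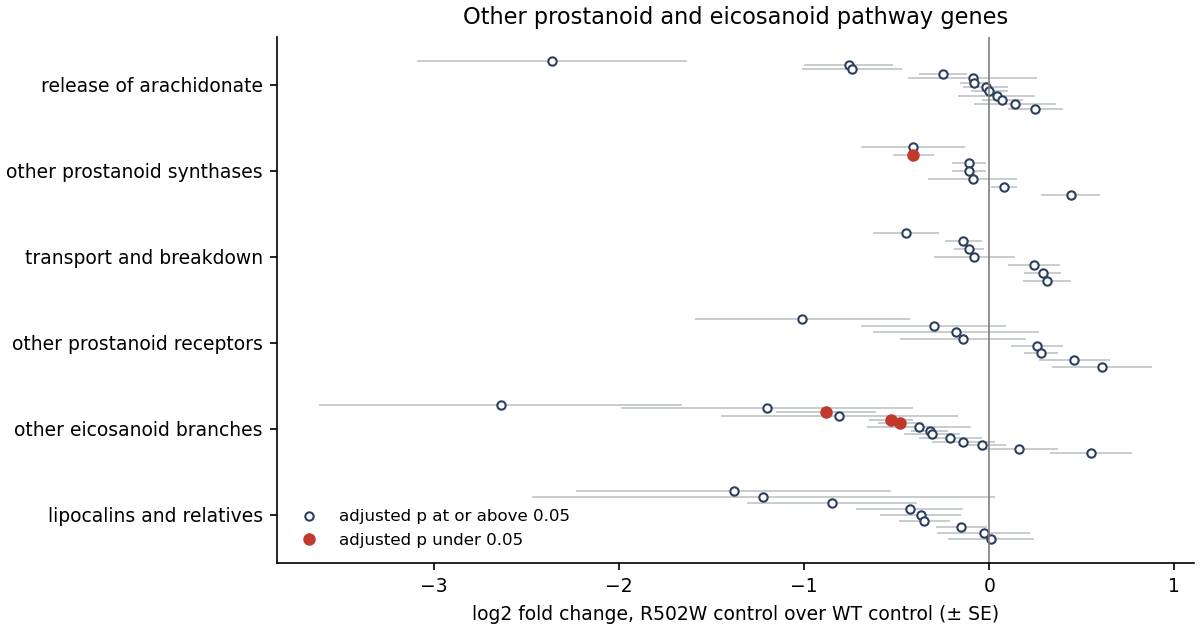
Genotype log2 fold change (R502W control over WT control, points) with SE (bars) of the 57 tested pathway genes that are not members, by list. Filled points passed an adjusted p under 0.05: Cbr1 among the synthases and Alox5, Ltc4s and Ephx1 among other eicosanoid branches, all left of 0.

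The remaining lists held no call for mavacamten or genotype: 0 of 12 genes of arachidonate release, 0 of 7 of transport and breakdown, 0 of 8 other receptors and 0 of 9 lipocalins and relatives. In the most abundant genes of these lists per kilobase, none of the differences passed. Mgll, which frees arachidonate by way of 2-arachidonoylglycerol, averaged 131 ± 16.8 CPM in R502W mavacamten hearts, 135 ± 18.3 CPM in R502W control hearts (SD, n = 4 each) and 128 ± 12.3 CPM in WT control hearts (SD, n = 5). Ptgr2, which reduces 15-keto prostaglandins after Hpgd has acted, averaged 196 ± 18.7 CPM in R502W mavacamten hearts, 200 ± 9.68 CPM in R502W control hearts and 164 ± 21.3 CPM in WT control hearts. Its genotype log2 fold change was 0.29 ± 0.10 (adjusted p = 0.0666, edgeR), and 0.34 with WT control replicate 1 left out, which passed (adjusted p = 0.0298). Ptgfrn, a partner of the F2α receptor, averaged 71.2 ± 9.85 CPM in R502W mavacamten hearts, 85.4 ± 7.26 CPM in R502W control hearts and 71.2 ± 13.7 CPM in WT control hearts, with a genotype log2 fold change of 0.26 ± 0.14 (adjusted p = 0.216, edgeR). Fabp3, the heart fatty acid binding protein and a distant relative of the lipocalins, averaged 2000 ± 322 CPM in R502W mavacamten hearts, 2030 ± 257 CPM in R502W control hearts and 2250 ± 332 CPM in WT control hearts, with a genotype log2 fold change of -0.15 ± 0.14 (adjusted p = 0.509, edgeR). For treated over WT control hearts 4 of the 57 pathway genes passed, all lower, a share no higher than the 8.21% of all genes. Of these, 1 was among the 9 lipocalins and relatives. The other 3 were among the 14 genes of the leukotriene and epoxide branches: Ephx1 (-0.61), Alox5 (-0.60) and Ltc4s (-1.35).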

How the data were processed

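The authors deposited expected counts per Ensembl gene for 13 libraries of poly(A)-selected, strand-specific RNA, estimated with RSEM on GRCm38, per the submitters' processing notes, which also name cutadapt, FastQC and DESeq2. The file name carries Ensembl release 99; aligner and strand setting are not given in the sources used here. Of all values, 5.76% were not whole. Symbols and exonic lengths came from GENCODE M21 (55230 of 55471 IDs matched).

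The expected counts were rounded and put through edgeR 4.0.16 (R 4.3.3): filterByExpr (minimum count 10, minimum total 15), TMM scaling, 1 quasi-likelihood fit over 13 libraries and 3 contrasts, with Benjamini-Hochberg adjustment over 15000 genes and a threshold of 0.05. The biological coefficient of variation was 0.232. CPM use TMM-scaled library sizes, and per-kilobase levels divide by exonic length. Within groups, 22 pairs of libraries differed beyond sampling noise (chi-square per degree of freedom 7.31 to 103). Scripts were tested on simulated data.

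Members and lists were chosen with earlier results of these data known. The members' genotype differences, planned as tests, are given as values, since the R502W control libraries entered the choice. Named were all 9 members, the 6 genes most like Ptgds (log2 CPM, prior count 2) and 3 with group means removed, pathway genes called for mavacamten or genotype, and the most abundant per kilobase of each list. Alternatives were RLE and upper-quartile factors, no filter, a removed length trend, DESeq2 1.42.0, limma 3.58.1 voom, 2-group fits, a replicate block, each library left out, and 2 sets of libraries left out. Levels of members and named pathway genes were also computed on raw library size, without a fit.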

Additional observations from a re-analysis of the deposited data

Results flagged for a closer look

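Among 57 groups of libraries examined for the members and named pathway genes, 5 held 1 library whose gap to the rest exceeded Dixon's limit; chance alone gives about 1 in 20 groups. WT control replicate 1 was low for 2 members: Hpgds was at 1.83 CPM there, against 3.36 to 3.91 CPM in the other WT control hearts, and Ptgis at 21.1 CPM, against 36.9 to 39.4 CPM. WT control replicate 2 was high for Cbr1, at 29.2 CPM against 19.3 to 21.9 CPM, and for Ephx1, at 76.6 CPM against 56.5 to 60.9 CPM. R502W control replicate 4 was high for Ephx2, at 186 CPM against 165 to 167 CPM. Ptgds itself had no such library in any group.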

How the results depend on the processing

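The log2 fold change of Ptgds for mavacamten was between -1.15 and -0.86 over 13 fits with 1 library left out and between -0.98 and -0.87 over 10 other settings. For genotype it was between 0.67 and 0.87 with 1 library left out and 0.63 without the 3 libraries low in Bmp10. With a replicate block it was 0.78; same-numbered libraries did not deviate together in every pair of groups (correlations from -0.32 to 0.25), so the numbers are not read as pairs.

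Counts of calls moved more. For mavacamten, DESeq2 called 6 genes and each other setting 0. For genotype the count was 963 with the replicate block, 404 without the 3 low-Bmp10 libraries, 1145 without the 4 high-Adipoq libraries (chosen after seeing the data) and 866 to 1870 with 1 library left out. For treated over WT control hearts it was 631 with the length trend removed, 740 without the filter, 216 with only the 2 groups, 349 with the replicate block, 86 without the low-Bmp10 and 653 without the high-Adipoq libraries, and 359 to 1213 with 1 library left out. Of the other pathway genes, genotype calls numbered 9 with DESeq2, 7 with upper-quartile factors, 5 without the high-Adipoq libraries, 0 without the low-Bmp10 libraries and 0 to 9 with 1 library left out, and treated-over-WT calls 2 with only the 2 groups, 2 with the replicate block and 1 without the low-Bmp10 libraries. The causes were not tested.

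Signs turned only for estimates near 0 or with a wide error. For genotype, Ptgs1 was -0.02 with RLE factors, without the filter and with DESeq2, -0.05 with upper-quartile factors, -0.00 with limma voom, -0.03 with the replicate block and -0.13 to 0.11 with 1 library left out. Ptger3 was -0.55 with limma voom, -0.83 with the replicate block, -0.18 without the low-Bmp10 libraries and -0.85 to 0.81 with 1 library left out. Mgll was -0.00 without the low-Bmp10 libraries and -0.02 to 0.11 with 1 left out, and Fabp3 0.00 with the length trend removed. For mavacamten, Mgll was 0.13 without the low-Bmp10 libraries and -0.11 to 0.05 with 1 left out, Ptgr2 0.01 without the high-Adipoq libraries and -0.07 to 0.03, Ephx1 -0.19 to 0.01, and Fabp3 0.00 with the length trend removed and -0.09 to 0.06. Counts under 100 in every library limit Hpgds, Ptgs2 and Ltc4s. Some libraries were also under 100 counts for Ptger3, Ptges, Ptger4 and Hpgd, whose lowest counts were 1, 32, 46 and 92.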
